A study of Mus musculus with 6 samples.

Results

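The genes described are the mouse Toll-like receptors Tlr1, Tlr2, Tlr4, Tlr6, Tlr7, Tlr8, Tlr9 and Tlr13, with the adaptor gene Myd88 and the co-receptor gene Cd14. They were chosen by name, and all 10 were found among the 22556 genes measured. Whole-pancreas RNA was sequenced in 2 saline mice, 2 mice with acute pancreatitis (AP) and 2 AP mice pretreated with polyI:C, called pretreated mice below. All 6 were wild-type C57BL/6 mice labelled as 8 weeks old, and the study's methods give males. AP was induced with 10 injections of caerulein, a secretagogue that overstimulates acinar cells, given 1 h apart, and pancreases were taken 24 h after induction. PolyI:C, a double-stranded RNA mimic and Tlr3 ligand, was given at 10 mg/kg before caerulein, with saline as the control injection. The methods name intervals of 1 and 8 h, and which of them the sequenced mice had is not given in the sources used here. Each library is labelled as a sample of its own, and p-values measure the spread between 2 mice per group.

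Toll-like receptors are membrane proteins of innate immunity that bind conserved microbial molecules and molecules released by damaged cells. Tlr1, Tlr2, Tlr4 and Tlr6 act mainly at the cell surface, where Tlr2 pairs with Tlr1 or Tlr6 to bind lipopeptides and Tlr4 binds lipopolysaccharide. Tlr7, Tlr8, Tlr9 and Tlr13 act in endosomes and bind nucleic acids. All 8 receptors signal through Myd88, and Cd14 delivers lipopolysaccharide and other ligands to the receptors. In the inflamed pancreas these genes are known mostly from macrophages, monocytes and neutrophils, and some are also expressed by other cells.

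Tlr1 and Tlr6 are neighbours on chromosome 5 of GRCm38 (64924679 to 64933563 and 64952031 to 64960097, both on the minus strand), and part of their coding sequence is identical. The longest run of bases that their transcripts share is printed because reads within it match both genes. It is 229 bases long and lies in the coding part of exon 4 of Tlr1 (chr5:64925537-64925765) and of exon 2 of Tlr6 (chr5:64953828-64954056).
Tlr1 and Tlr6, shared run: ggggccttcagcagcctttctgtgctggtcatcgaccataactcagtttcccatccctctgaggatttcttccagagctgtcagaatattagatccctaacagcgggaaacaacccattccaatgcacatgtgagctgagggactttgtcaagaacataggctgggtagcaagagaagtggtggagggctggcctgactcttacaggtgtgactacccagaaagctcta
Of all stretches of 100 bases in its annotated transcripts, Tlr1 shared 7.89% with another gene and Tlr6 shared 7.09%, in each case with the other of the pair. The other 8 genes shared 0 stretches. They lie on chromosome 3 (Tlr2, 83836272 to 83841767), 4 (Tlr4, 66827584 to 66930284), 9 (Tlr9, 106222598 to 106226883, and Myd88, 119335934 to 119341411), 18 (Cd14, 36725067 to 36726798) and X (Tlr7, 167304929 to 167330558, Tlr8, 167242696 to 167264329, and Tlr13, 106143204 to 106160493). Values of Tlr1 and Tlr6 are therefore less certain than the rest to the extent that the counting dropped or divided such reads.

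Promoter sequences of RefSeq (GRCm38.p6) were at hand for 7 of the 10 genes, in 9 windows, and Tlr4, Tlr7 and Cd14 had no entry. Of 4 motifs searched on both strands over 300 bases around each start, the 3 windows below are shown because they hold the PU.1 type, the motif of a myeloid transcription factor, or the interferon-stimulated response element type. Each line gives the 250 bases before the start, with the match in capitals.
Tlr1, chr5:64933559-64933808, minus strand: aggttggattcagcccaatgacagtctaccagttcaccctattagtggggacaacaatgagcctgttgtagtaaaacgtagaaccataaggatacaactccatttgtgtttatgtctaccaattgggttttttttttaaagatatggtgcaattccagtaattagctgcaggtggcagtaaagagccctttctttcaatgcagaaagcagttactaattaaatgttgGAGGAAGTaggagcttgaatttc
Tlr6, chr5:64959167-64959416, minus strand: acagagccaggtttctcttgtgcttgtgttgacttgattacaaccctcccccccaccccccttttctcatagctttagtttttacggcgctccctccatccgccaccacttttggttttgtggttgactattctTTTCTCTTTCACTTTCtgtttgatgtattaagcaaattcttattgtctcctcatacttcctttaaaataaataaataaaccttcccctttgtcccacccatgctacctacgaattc
Myd88, chr9:119340019-119340268, minus strand: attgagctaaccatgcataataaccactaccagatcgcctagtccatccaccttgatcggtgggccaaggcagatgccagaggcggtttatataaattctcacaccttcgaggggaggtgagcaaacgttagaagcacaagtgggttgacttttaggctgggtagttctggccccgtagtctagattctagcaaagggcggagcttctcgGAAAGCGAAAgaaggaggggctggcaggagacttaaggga
The PU.1 type (GAGGAAGT) matched at -23 in the Tlr1 window, and it occurs in 3.20% of 32851 mouse promoters. A match to it also lies at 11 bases after the start of Tlr9, on the opposite strand. The interferon-stimulated response element type occurs in 3.44% of promoters and matched at -40 in Myd88 and, in overlapping matches on the opposite strand, at -116 and -110 in Tlr6. TGANTCA, the AP-1 motif, occurs in 7.81% of promoters and matched at -58 in Tlr9, and the NF-kB type occurs in 0.411% and matched none of the 9 windows. These matches describe letters and are not binding sites.

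The spacing of low values gave estimates of 4606439 and 5525296 reads in the saline mice and of 9734209 to 15241567 in the other mice, so low genes are measured least precisely in the saline mice. Bhlha15, a transcription factor of mature acinar cells, was at 391 and 326 TPM in saline, 53.6 and 46.4 TPM in AP and 161 and 171 TPM in pretreated mice. In TPM, transcript abundance per gene length on a fixed total, which is the unit of all levels here, the median gene was higher in AP than in saline mice by 0.45 on the log2 scale, and by 0.06 after median-of-ratios scaling. Differences below are log2 fold changes of TPM + 0.5, which understate the change of low genes. A gene passed the threshold with an adjusted p of at most 0.05 (limma, Benjamini-Hochberg over 16814 genes) and a fold of at least 2.

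Induction of AP went with higher transcript levels of most of these receptors. Of the 9 genes tested, 7 rose in AP against saline mice (Tlr1, Tlr2, Tlr4, Tlr8, Tlr13, Myd88 and Cd14), and 0 fell. Among all genes tested, 18.2% rose and 4.03% fell. These shares depend on scaling, since 3053 genes rose and 677 fell as deposited, against 1566 and 1220 of the same 16814 after median-of-ratios scaling, where 5 of the 9 genes rose. The rises ran from 1.03 for Tlr4 to 3.85 for Cd14, with a median of 2.24 over the 9 genes against 0.45 over all genes. All 10 genes had higher values in each AP mouse than in any saline mouse, as had 52.6% of all genes. In a bulk sample, more cells of a type and more RNA per cell cannot be told apart.

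**Figure D1:**
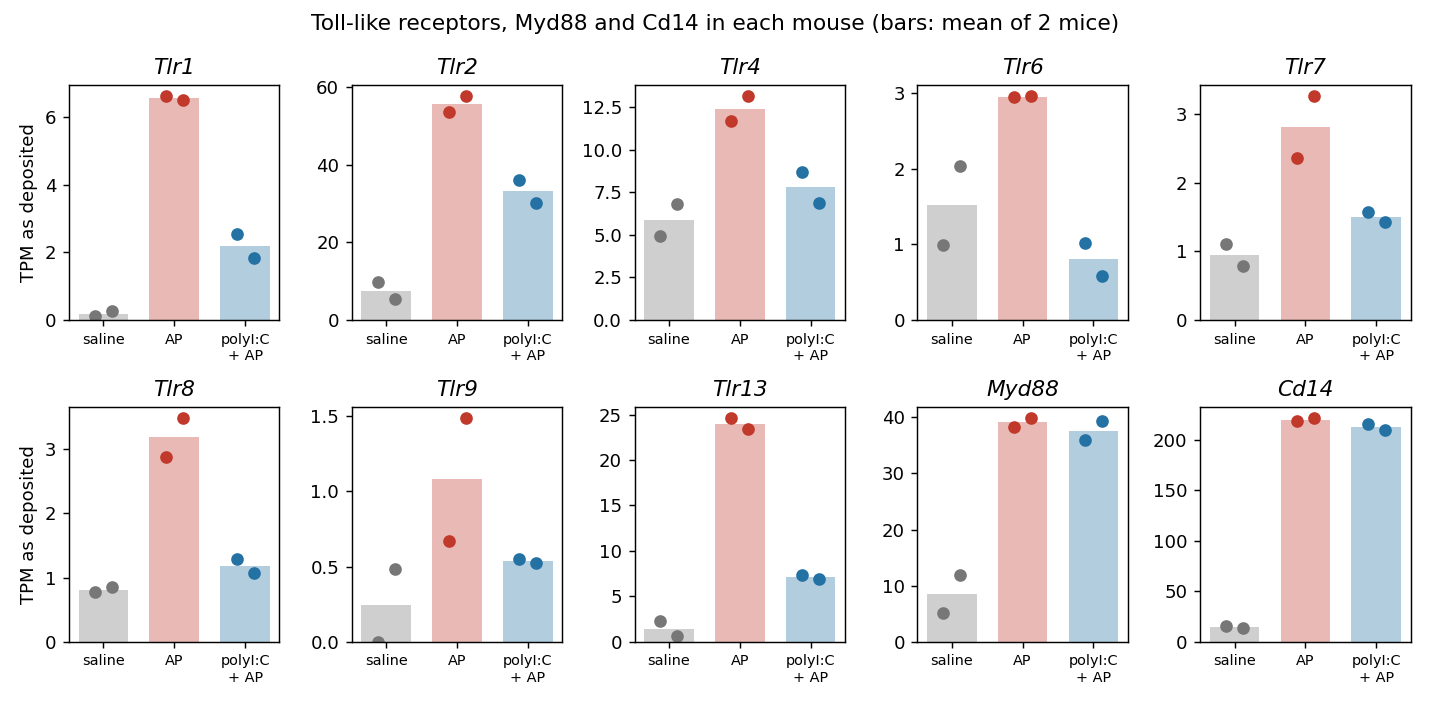
TPM as deposited (vertical axis, a separate linear scale from 0 for each gene) in saline, AP and pretreated (polyI:C + AP) mice, with 1 point per mouse and bars for the mean of 2 mice. Both AP mice lie above both saline mice in all 10 panels, and the pretreated mice lie below the AP mice in all panels but Myd88.

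Among the surface receptors, Tlr2, the shared partner of the lipopeptide receptors, was the most abundant by mean level in each group. Its levels were 9.77 and 5.31 TPM in saline, 53.4 and 57.6 TPM in AP and 36.1 and 30.1 TPM in pretreated mice. The 3 groups did not overlap. Tlr2 rose by 2.86 ± 0.27 (SE) in AP against saline mice (adjusted p = 0.00041).

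Tlr1, which binds triacylated lipopeptides together with Tlr2, was close to undetected without pancreatitis. Its 0.111 and 0.274 TPM in the saline mice rest on 1 and 2 estimated reads. Levels of 6.61 and 6.49 TPM were measured in AP and of 2.54 and 1.82 TPM in pretreated mice. Again the groups were apart, and the difference between AP and saline mice was 3.36 ± 0.35 (adjusted p = 0.00063). As a ratio of reads to library totals, AP mice were 29.7 times the saline mice, with an exact 95% interval for counting error only of 10 to 145.

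Tlr6, the partner of Tlr2 for diacylated lipopeptides, was lower than Tlr2 and Tlr4 in every mouse. It had 0.997 and 2.04 TPM in saline, 2.95 and 2.96 TPM in AP and 1.02 and 0.588 TPM in pretreated mice. The saline and pretreated mice overlapped. Its difference between AP and saline mice, 0.83 ± 0.46, did not pass the threshold (adjusted p = 0.20).

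Tlr4 is the lipopolysaccharide receptor. Values were 4.94 and 6.81 TPM in saline, 11.7 and 13.1 TPM in AP and 8.70 and 6.87 TPM in pretreated mice. It rose by 1.03 ± 0.22 in AP against saline mice (adjusted p = 0.0100), just past the 2-fold limit. The call was lost after median-of-ratios scaling, at 0.63 (adjusted p = 0.071), and fell under 2-fold with voom on estimated reads (0.84), with a pseudocount of 1 TPM (0.98) and with the non-overlapping exon length (0.97). It was also lost without saline mouse 1, where the difference of 0.82 was under 2-fold, and without AP mouse 1 or AP mouse 2 (adjusted p = 0.073 and 0.11).

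Tlr13, a receptor for bacterial ribosomal RNA, rose most among the endosomal receptors. It was at 2.29 and 0.605 TPM in saline, 24.6 and 23.4 TPM in AP and 7.30 and 6.89 TPM in pretreated mice. The groups did not overlap, and the rise in AP was 3.80 ± 0.40 (adjusted p = 0.00064). The saline values rest on 14 and 3 estimated reads, and the rise was 4.47 without saline mouse 1 and 3.13 without saline mouse 2.

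Tlr7 and Tlr8 are related receptors for single-stranded RNA and neighbours on chromosome X. Tlr8 had 0.775 and 0.847 TPM in saline, 2.88 and 3.49 TPM in AP and 1.30 and 1.07 TPM in pretreated mice. It rose by 1.49 ± 0.41 in AP (adjusted p = 0.026), and its call was lost after median-of-ratios scaling (adjusted p = 0.072), with only these 2 groups in the fit (0.079), and without any 1 of the 4 saline and AP mice (adjusted p from 0.057 to 0.16) or without pretreated mouse 2 (adjusted p = 0.070). Tlr7 had 1.11 and 0.793 TPM in saline, 2.36 and 3.26 TPM in AP and 1.57 and 1.43 TPM in pretreated mice. Its difference between AP and saline mice, 1.18 ± 0.40, missed the threshold (adjusted p = 0.054). It passed with a pseudocount of 0.1 TPM (adjusted p = 0.049), with 1 prior for all genes (0.019), with a prior on the summed exon length (0.021) and with the non-overlapping exon length (0.016).

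Tlr9, the receptor for unmethylated CpG DNA, had a mean of 0.620 TPM and was too low to test. Its estimated reads numbered 0 and 2 in saline, 5 and 14 in AP and 5 and 6 in pretreated mice. Read totals gave a ratio of AP to saline mice of 4.34, with an exact 95% counting interval of 1.05 to 38.4. With no filter on low values, its difference was 1.12 ± 0.56 (adjusted p = 0.21). AP mouse 2, with 1.49 TPM of Tlr9 against 0.673 TPM in AP mouse 1, also had higher levels of the B cell markers Ms4a1 (7.91 against 1.08 TPM), Cd79a (8.89 against 2.89 TPM) and Cd79b (19.0 against 1.56 TPM). Their part in the Tlr9 values was not tested.

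**Figure D2:**
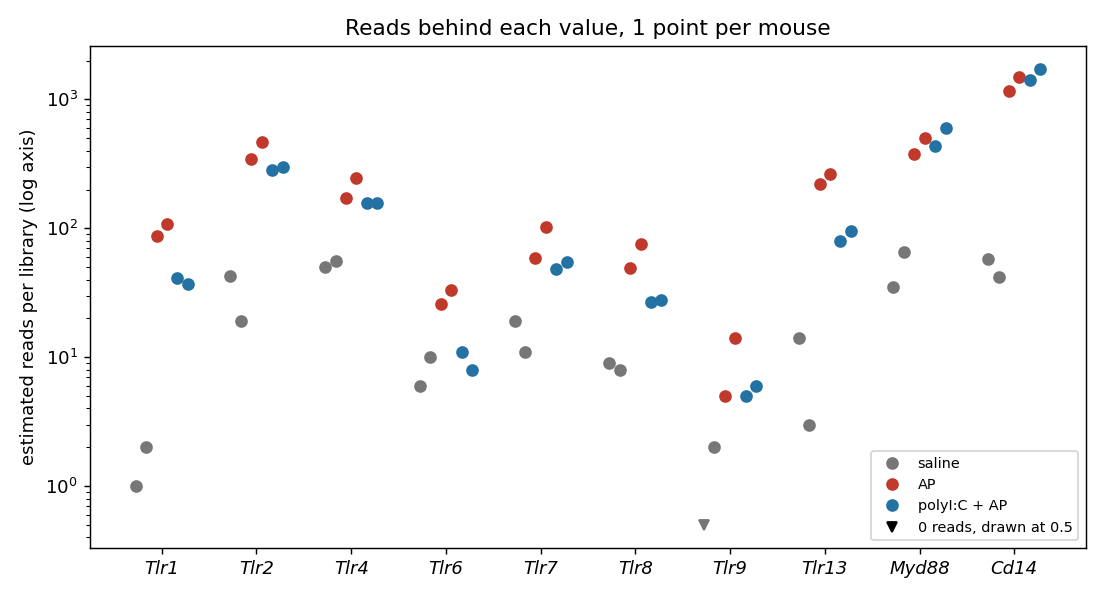
Estimated reads per library behind each value (vertical log axis), with 1 point per mouse coloured by group and a triangle at 0.5 for the library with 0 reads. Tlr1, Tlr6, Tlr8 and Tlr9 rest on 10 reads or fewer in each saline mouse, and Cd14 rests on 1171 or more in each mouse given caerulein.

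Cd14 was the most abundant of the 10 genes by mean level in every group. It had 15.7 and 13.9 TPM in saline, 218 and 222 TPM in AP and 216 and 209 TPM in pretreated mice. The caerulein-treated mice of both groups stood far above the saline mice, and the rise in AP was 3.85 ± 0.10 (adjusted p = 1.3e-05).

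Myd88 had 5.14 and 11.9 TPM in saline, 38.3 and 39.9 TPM in AP and 35.9 and 39.3 TPM in pretreated mice. It rose by 2.24 ± 0.34 in AP against saline mice (adjusted p = 0.0026). Without AP mouse 1 or AP mouse 2 the adjusted p was 0.054 and 0.057.

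The study asked how polyI:C pretreatment changes the pancreas in AP. Of the 9 genes tested in pretreated against AP mice, 0 passed the threshold with limma, beside 0.845% of all genes tested. At an unadjusted p of at most 0.05, 6 of the 9 were lower (Tlr1, Tlr2, Tlr4, Tlr6, Tlr8 and Tlr13) and 0 were higher, where 6.07% of all genes were lower. In all, 9 of the 10 genes had lower values in each pretreated mouse than in any AP mouse, as had 22.1% of all genes, and Myd88 overlapped.

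The receptor differences had wide intervals. Tlr13 differed by -1.69 ± 0.40 (adjusted p = 0.12), Tlr6 by -1.43 ± 0.46 (adjusted p = 0.24), Tlr1 by -1.41 ± 0.35 (adjusted p = 0.14) and Tlr8 by -1.13 ± 0.41 (adjusted p = 0.29). Smaller differences were those of Tlr2, at -0.74 ± 0.27 (adjusted p = 0.29), Tlr7, at -0.72 ± 0.40 (adjusted p = 0.50), and Tlr4, at -0.65 ± 0.22 (adjusted p = 0.26). Tlr13 passed the threshold with voom on estimated reads (adjusted p = 0.0063), with only these 2 groups in the fit (0.024) and without saline mouse 1 or 2 (0.036 and 0.037), and Tlr1 passed with voom alone (0.022).

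Cd14 and Myd88 had small differences in the same comparison. Cd14 differed by -0.05 with a 95% interval of -0.30 to 0.20, so the interval excludes a 2-fold difference. The interval of Myd88 was wider, from -0.88 to 0.76 around -0.06, and it too excludes a 2-fold difference.

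Against saline mice, pretreated mice had higher levels of 5 of the 9 genes tested (Tlr1, Tlr2, Tlr13, Myd88 and Cd14), and 16.9% of all genes rose. Over all genes, 2838 rose and 500 fell as deposited, against 1325 and 982 after median-of-ratios scaling, where these 5 genes also rose. The differences were 1.95 for Tlr1, 2.11 for Tlr2, 2.11 for Tlr13 (2.78 without saline mouse 1 and 1.44 without saline mouse 2), 2.18 for Myd88 and 3.80 for Cd14 (adjusted p from 1.7e-05 to 0.0067). Without pretreated mouse 1 the calls of Tlr1, Tlr13 and Myd88 were lost (adjusted p = 0.051, 0.093 and 0.059), and without pretreated mouse 2 those of Tlr13 and Myd88 (0.072 and 0.052). Without AP mouse 1 the call of Tlr13 was lost (adjusted p = 0.050). Tlr4, Tlr7 and Tlr8 differed by 0.38, 0.47 and 0.36 and Tlr6 by -0.60, with adjusted p from 0.22 to 0.53. Both comparisons with AP mice use the same 2 AP mice, and their values are given side by side without a test of the relation between them.

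**Figure D3:**
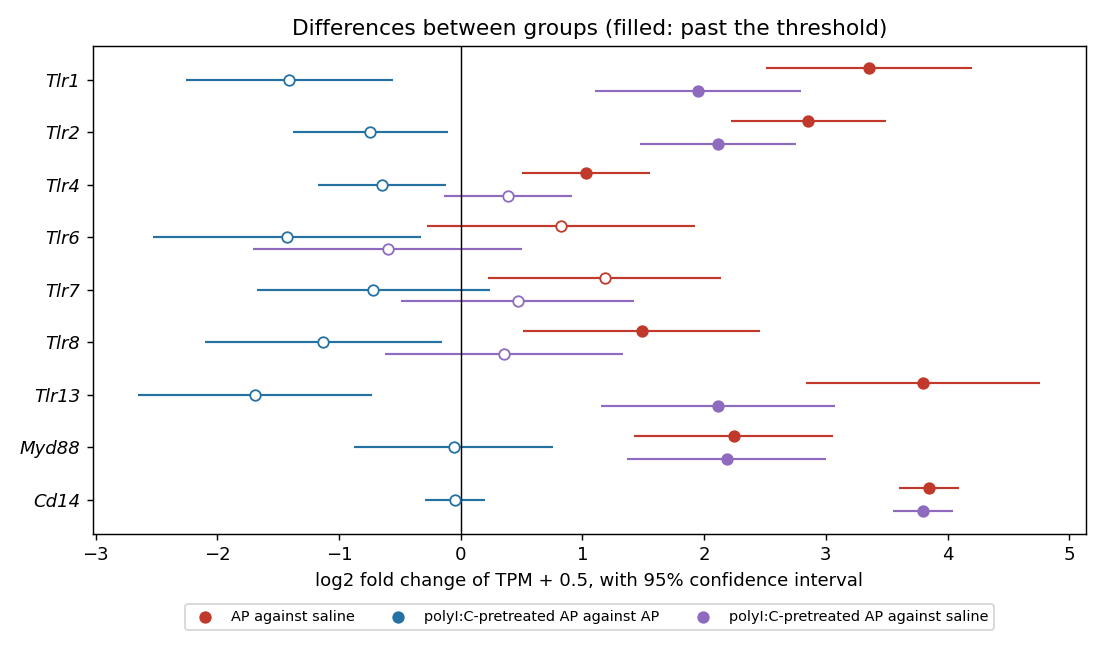
Log2 fold changes of TPM + 0.5 (horizontal axis) with 95% confidence intervals for the 9 tested genes in the 3 comparisons, filled where the threshold was passed. AP against saline lies right of 0 for all 9 genes, from 0.83 for Tlr6 to 3.85 for Cd14, and pretreated against AP lies left of 0, from -1.69 for Tlr13 to -0.05 for Cd14.

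Markers of macrophages and monocytes were higher in AP than in saline mice and lower in pretreated than in AP mice. The 8 markers (Csf1r, Adgre1, Cd68, Fcgr1, Itgam, Mrc1, Ccr2 and Lyz2), none at 0 in any library, summed to 541 and 368 TPM in saline, 2200 and 2447 TPM in AP and 278 and 189 TPM in pretreated mice. Lyz2 alone made up most of each sum, with 444 and 307, 1891 and 2118, and 203 and 119 TPM, and the markers differed among themselves in pretreated against saline mice, where Cd68 (1.78) and Fcgr1 (1.44) rose and Csf1r (-1.01) and Lyz2 (-1.24) fell. Of these 8, 7 rose in AP, beside 18.2% of all genes. In pretreated against AP mice 6 fell, beside 0.404% of all genes, and their median difference was -2.36 over the 8. The mean log2 level of the 8 was 3.75 and 3.21 in saline, 5.92 and 6.01 in AP and 3.57 and 3.38 in pretreated mice. The 4 general leukocyte markers (Ptprc, Laptm5, Cd52 and Coro1a) summed to 26.7 and 31.5, then 95.2 and 129, then 25.9 and 27.7 TPM in the same order of groups. Neutrophil markers were thinly measured, with 8 of 11 in the tables and Ly6g, Mpo and Ngp not analysed here, and summed to 16.9 and 5.15, 69.6 and 59.9, and 44.3 and 22.0 TPM. By flow cytometry, the study reported fewer neutrophils in pretreated than in AP mice and no effect of polyI:C on macrophages. The part of these cells in the receptor values was not tested.

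Set beside the mean log2 level of the 8 macrophage markers, the receptors divided. Tlr1, Tlr2, Tlr13 and Cd14 had larger differences than the markers in all 4 pairs of AP and saline mice, by 0.87, 0.37, 1.31 and 1.36, as had 2.18% of all genes. Tlr4, Tlr6, Tlr7, Tlr8 and Tlr9 had smaller ones in all 4 pairs, as had 87.7% of all genes, and Myd88 overlapped. In pretreated against AP mice all 10 genes were higher relative to the markers, which also held for 95.4% of all genes. Relative to the 4 general leukocyte markers, 7 of the 10 were higher in all 4 pairs, as were 92.5% of all genes, and Tlr1, Tlr6 and Tlr13 overlapped.

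Other genes of the pathway were counted over lists. Of the 4 further mouse receptors, Tlr5, Tlr11 and Tlr12 were too low to test, and Tlr3, the receptor for double-stranded RNA, rose by 2.56 in AP (adjusted p = 0.00068) and differed by 0.15 in pretreated against AP mice (adjusted p = 0.88). Of 10 co-receptors and chaperones, 6 rose in AP, beside 18.2% of all genes. Among the 6, Ly96, the partner of Tlr4 for lipopolysaccharide, rose by 1.42. Unc93b1, which carries endosomal receptors to their compartment, rose by 1.79, and Slc15a3, an endosomal peptide and histidine transporter, by 2.50. The others that rose were Ly86, Lbp and Slc15a4. In pretreated against AP mice 0 of the 10 passed the threshold, beside 0.845% of all genes. Ly96, Lbp, Unc93b1 and Slc15a4 rose in pretreated against saline mice.

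Downstream components were called at rates near that of all genes, of which 18.2% rose in AP. Of 4 adaptors tested, 1 rose in AP, Tirap, which links Tlr2 and Tlr4 to Myd88, by 1.24, and Ticam2 was too low to test. Of 14 kinases and ubiquitin ligases, 3 rose, which were Irak4, the kinase that first joins Myd88, by 1.54, Ube2n by 1.35 and Traf3 by 1.05. The median of the 14 was 0.28, against 0.45 over all genes. In pretreated against AP mice 0 of these 18 genes passed the threshold, beside 0.845% of all genes, and against saline mice Irak4, Traf3 and Ube2n rose.

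Of 6 inhibitors, 2 rose in AP, beside 18.2% of all genes. These were Tnfaip3, a deubiquitinating enzyme that limits NF-kB, by 2.41 and Nfkbia, which holds NF-kB in the cytoplasm, by 1.37. Nfkbia was at -0.93 in pretreated against AP mice, which passed on the adjusted p (0.025) but not on the fold. Against saline mice Tnfaip3 and Sigirr rose in the pretreated mice. Of 7 endogenous ligands reported for Tlr2 or Tlr4, 4 rose in AP, beside 18.2% of all genes. These were Vcan (versican, a matrix proteoglycan) at 3.18, S100a9 at 2.52, Tnc (tenascin C) at 2.17 and Bgn (biglycan) at 1.12. S100a9 is also one of the neutrophil markers above, and Vcan and Hspd1 rose in pretreated against saline mice. Vcan was the one gene of these pathway lists to fall (beside 0.404% of all genes) in pretreated against AP mice, from 18.9 and 21.6 to 7.92 and 6.46 TPM (-1.44, adjusted p = 0.015).

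**Figure D4:**
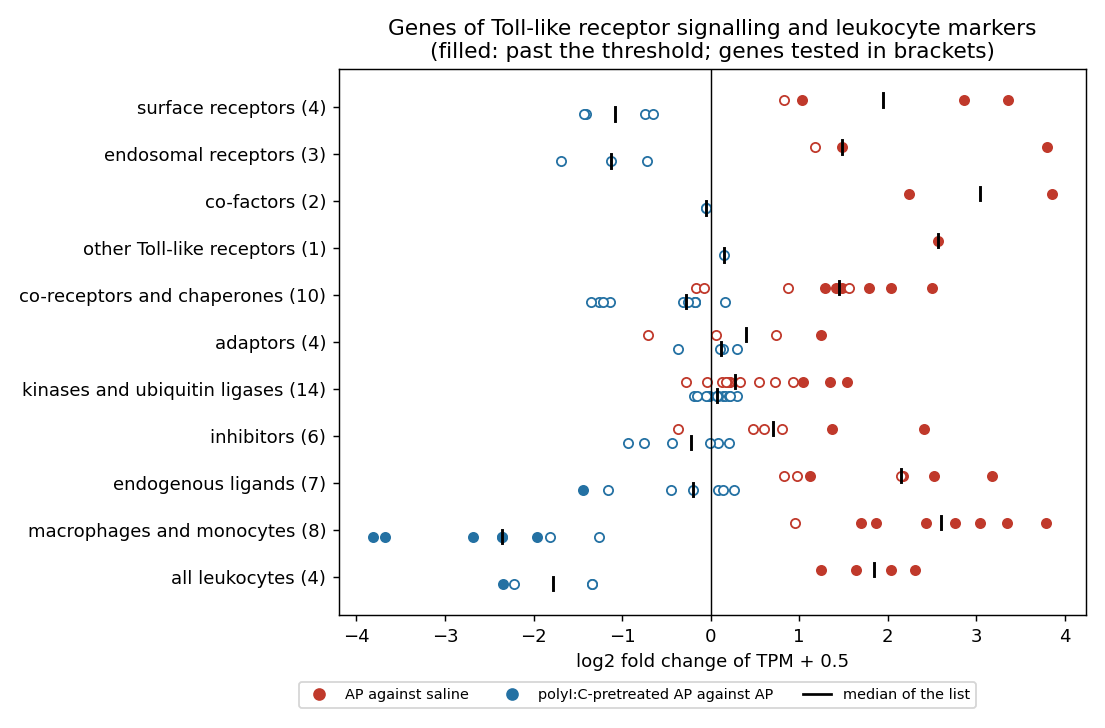
Log2 fold changes of TPM + 0.5 (horizontal axis) for each tested gene of the pathway and leukocyte lists, in AP against saline and in pretreated against AP mice, filled where the threshold was passed and with a line at each list's median. The 14 kinases and ubiquitin ligases centre at 0.28 and the 4 surface receptors at 1.94 in AP against saline mice.

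Comparing levels between genes needs a gene length, and the deposited TPM appear to rest on one that counts overlapping exons of different transcripts repeatedly, a step the authors do not describe. Among genes with overlapping annotated exons, 45.5% to 51.0% of low values per library were whole reads with the summed length of distinct exons, and 18.2% to 19.4% with the non-overlapping length. Lengths shuffled between genes gave 19.6% to 20.4%. The summed length exceeds the non-overlapping length 2.82 times for Tlr7, 2.18 times for Tlr8, 1.84 times for Tlr1 and 1.79 times for Myd88, and is equal to it for Tlr2 and Tlr9. A ratio of TPM of 1 gene between mice hardly depends on its own length, but log2 fold changes of TPM + 0.5 do. Recomputed TPM were also rescaled to a fixed total. Before rescaling, totals were 1.30 and 1.32 times those deposited in saline mice and 1.36 and 1.37 times in AP mice. This acts to lower the differences between AP and saline mice for all genes. For Tlr2, whose length is the same, the difference went from 2.86 to 2.77. With the non-overlapping length, the difference between AP and saline mice became 3.61 for Tlr1, 1.30 for Tlr7, which then passed the threshold (adjusted p = 0.016), and 0.97 for Tlr4, which then did not.

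With the non-overlapping length, levels in the AP mice fell in the order Cd14 (233 and 234 TPM), Myd88 (50.6 and 52.1), Tlr2 (39.3 and 41.9), Tlr13 (17.6 and 16.5), Tlr4 (10.7 and 11.9), Tlr1 (8.95 and 8.69), Tlr7 (4.98 and 6.79), Tlr8 (4.70 and 5.63), Tlr6 (2.40 and 2.38) and Tlr9 (0.495 and 1.08). Among neighbours in this order, only Tlr7 and Tlr8 overlapped between the 2 mice. As deposited, Tlr2 stood above Myd88, and by mean level Tlr8 and Tlr6 stood above Tlr7, though both overlapped it between the mice. In the saline mice the first 4 by recomputed level were Cd14, Myd88, Tlr2 and Tlr4, each overlapping the next. In the pretreated mice the order began as in the AP mice, but Tlr4 stood above Tlr13, and only Tlr7 and Tlr1 overlapped as neighbours.

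**Figure D5:**
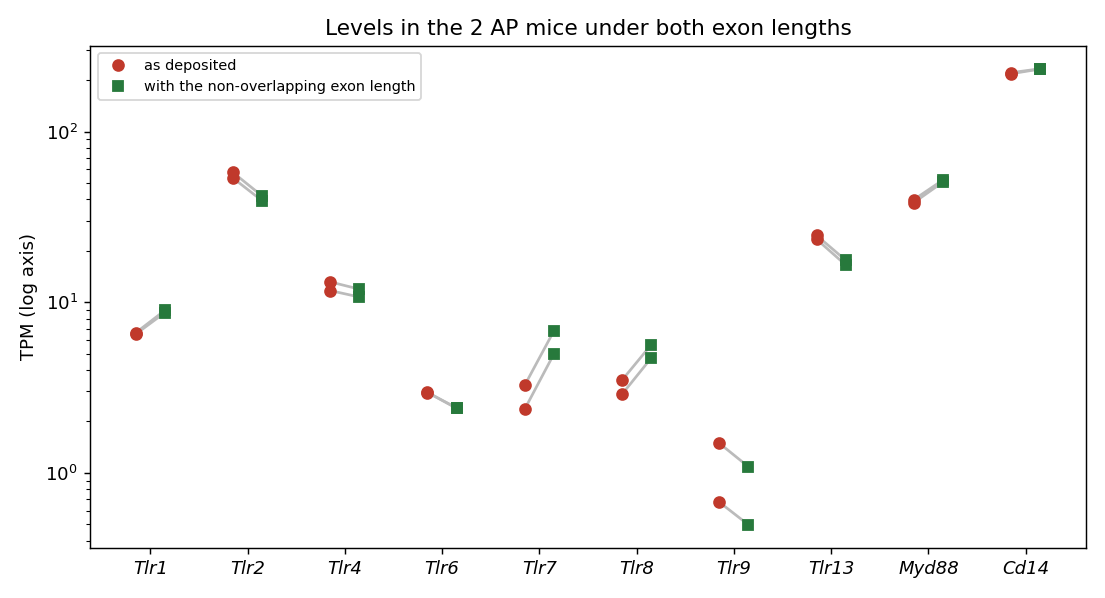
TPM of the 10 genes in the 2 AP mice (vertical log axis) as deposited (circles) and recomputed with the non-overlapping exon length (squares), joined for each mouse. Tlr7 moves most, from 2.36 and 3.26 to 4.98 and 6.79 TPM.

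Across the 6 mice, the pattern of Tlr6 was least like the others, with a Pearson r of log2 levels from 0.08 with Cd14 and 0.19 with Myd88 to 0.73 with Tlr4 and 0.74 with Tlr8. Tlr6 rests on 6 and 10 estimated reads in saline, 26 and 33 in AP and 11 and 8 in pretreated mice. The part of counting error in its r was not tested. The closest pairs were Tlr2 with Tlr13 (0.98) and Tlr2 with Cd14 (0.96). At 0.95 each, Tlr7 and Tlr4 with Tlr8, Tlr7 with Tlr13, and Tlr1 with Tlr2 and with Tlr13 came next. These values describe 6 points that share their groups and depth. Among 10399 protein-coding genes of at least 5 TPM, Tlr8 was most like Nckap1l, Cyth4 and Igsf6 (r of 0.99 each), Tlr7 like Uap1l1, Ly86 and Wrnip1, Tlr4 like Lrrc59, Riok3 and Tmed9, and Tlr6 like Hspa5 and Syne4. Tlr1 was most like Sumo3, Rab31 and Ifrd1, and Tlr13 like Dpysl3, Gpr153 and Xpo6. For Tlr2 these were Fstl1, Map3k6 and Csf1, for Myd88 Kdsr, Polr2h and Hspa9, and for Cd14 Fgd6, Phlda3 and Atp6ap1. An r over 0.95 was shared by 2596 genes for Cd14, 1573 for Myd88 and 101 for Tlr8, but by 7 for Tlr6.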

How the data were processed

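Per the labels and methods, the authors used Trimmomatic for trimming, STAR for mapping to mm10 and HTSeq for counting (versions not given in the sources used here). They deposited TPM values per gene for each of the 6 mice, and how counts became TPM is not described. The labels name 2 library kits, a ribosomal RNA depletion kit with a directional library kit and a stranded mRNA kit. Values were used as deposited. Gene names, lengths and coordinates came from GENCODE M21 (22490 of 22556 genes matched).

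Tests covered genes averaging 1 TPM or more and used limma 3.58.1 (R 4.3.3) on log2(TPM + 0.5), with 1 coefficient per group over all 6 mice and a prior variance following log2(mean TPM × non-overlapping exon length + 1). Reads per library were estimated from the spacing of low values, counted as whole within 0.1 of a read. For a gene below 300 reads, the length was allowed to vary by up to 10% around the summed exon length until all 6 values came out whole. The fit was tested on simulated data with fewer changed genes than passed in AP against saline mice. It called most genes changed 4-fold there but none of those changed 2-fold. In the measured AP against saline mice, differences close to 2-fold were called, such as 1.03 for Tlr4. The simulation therefore does not set the smallest change that the fit can call. Even so, the absence of a call does not show the absence of a 2-fold change. The 10 genes, the lists and the tests were chosen with earlier results of these data known. Named genes are these 10, pathway genes past the threshold or not testable, leukocyte markers, and the 3 genes most correlated with each tested gene, of which a few are not reported here. Alternatives were other pseudocounts, filters, scalings, priors, voom, a replicate block and leaving out each mouse.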

Additional observations from a re-analysis of the deposited data

How the results depend on the processing

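The number of the 9 tested genes past the threshold was 7 in AP against saline mice, 0 in pretreated against AP mice and 5 in pretreated against saline mice. Leaving out each mouse in turn gave 4 to 7, 0 to 1 and 2 to 5. The first count fell most without either AP mouse, when fewer of all genes passed too. The calls then lost were those of Tlr4, Tlr8 and Myd88. That count also fell without saline mouse 1, saline mouse 2 or pretreated mouse 2. The call of Tlr8 was lost in each of these, and that of Tlr4 without saline mouse 1. For Tlr4, the difference was 1.03 with both AP mice, 1.11 without AP mouse 1 and 0.95 without AP mouse 2. In the same order, it was 1.49, 1.61 and 1.37 for Tlr8 and 2.24, 2.27 and 2.21 for Myd88. The third count fell most without a pretreated mouse, and Tlr2 and Cd14 passed each time. A lone mouse of a group is then assumed to vary like the other groups. In pretreated against AP mice, voom on estimated reads called 2 genes and a fit of these 2 groups only called 1. In AP against saline mice, the other settings gave 5 to 8, and median-of-ratios scaling gave 5. Of 474 values of single genes under alternatives, 440 kept their direction and side of the threshold, 23 lost and 9 gained a call, and 2 changed sign, neither past the threshold. These were Myd88 in pretreated against AP mice without pretreated mouse 1 (0.0055, and -0.12 without pretreated mouse 2) and Tlr4 in pretreated against saline mice after median-of-ratios scaling (-0.039). Where no cause is named, the cause was not tested.

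The replicate block left the counts at 7, 0 and 5. Mice that share a number did not deviate together (correlations of 0.0075, -0.0039 and 0.035). Whether such mice shared a day or a batch was not tested. A prior with the summed exon length and TPM recomputed with the non-overlapping length were chosen after seeing the data, and gave 8 and 7 in AP against saline mice. The first added Tlr7, and the second added Tlr7 and lost Tlr4. Depth limits Tlr1, Tlr6, Tlr8 and Tlr9, with 10 estimated reads or fewer in each saline mouse, and Tlr13, with 14 and 3.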
